A study of Mus musculus with 10 samples.

Results

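The genes described here encode enzymes that make, phosphorylate or break down NAD, the redox coenzyme that sirtuins also consume as a substrate. They were chosen by symbol, as a list of 10: Nampt, Nmnat1, Nmnat3, Nadk, Naprt, Nadsyn1, Nmrk1, Cd38, Bst1 and Nnmt. Of these, 9 had a row in the table of 20813 genes and all 9 passed the minimum level for testing. No row carried the symbol Nnmt, and that gene was not analysed here.

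Bulk RNA came from leukemic spleens of mice carrying T-ALL (T-cell acute lymphoblastic leukemia, a cancer of immature T cells), which had been passed by vein into recipients given a sub-lethal dose of radiation. Spleens were dispersed to single cells and red blood cells were lysed. Leukemias of both groups carried a conditional Sirt1 allele, and the strain label was C57BL/6 throughout. The 5 samples labelled Sirt1 deleted are titled TMX 7, 8, 10, 11 and 12, read here as tamoxifen (3 mg per mouse in corn oil, into the peritoneum). The 5 controls are titled VEH 2 to 6, read as corn oil alone. The drug and the genotype label therefore cannot be told apart. The groups are called TMX and VEH below, because the Sirt1 level itself does not separate them. The labels name neither the recombinase that acts on the allele, nor the number of independent leukemias, nor the age of the mice. If samples share a leukemia, the p-values measure only the spread between these spleens.

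NAD can be built along several routes. In the amide route, NAMPT couples nicotinamide, the product left when sirtuins and PARPs cleave NAD, to a ribose phosphate; in the acid route, NAPRT does the same with nicotinic acid; and in the riboside route, NMRK1 phosphorylates nicotinamide riboside. A longer route starts from tryptophan and reaches the acid route through QPRT. All of them pass through an NMNAT enzyme, which adds the adenylyl group, and the acid and tryptophan routes need NADSYN1 for a last amidation. NADK turns NAD into NADP, while CD38 and its relative BST1 (CD157) cleave NAD, chiefly at the cell surface.

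Promoter sequence is shown for the 3 synthesis genes whose RefSeq window of 250 bases before the start site overlapped no annotated exon: Nampt at chr12:32820085-32820334 (plus strand), Nadsyn1 at chr7:143822853-143823102 (minus strand) and Nmnat3 at chr9:98296320-98296569 (plus strand), all in build GRCm38.p6 and written 5′ to 3′ along the gene. The Nampt and Nmnat3 windows lie before a RefSeq start site but inside the span that GENCODE gives each gene, so they are not upstream of its outermost annotated start. RefSeq windows were found for 7 of the 10 genes. Capitals mark GGGCGG, the GC box, on either strand.
Nampt: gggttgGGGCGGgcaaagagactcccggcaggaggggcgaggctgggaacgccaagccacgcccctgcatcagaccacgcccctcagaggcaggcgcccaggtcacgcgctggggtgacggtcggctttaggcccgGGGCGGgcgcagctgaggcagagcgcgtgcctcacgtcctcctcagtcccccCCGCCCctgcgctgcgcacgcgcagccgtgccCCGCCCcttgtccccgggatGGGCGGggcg
Nadsyn1: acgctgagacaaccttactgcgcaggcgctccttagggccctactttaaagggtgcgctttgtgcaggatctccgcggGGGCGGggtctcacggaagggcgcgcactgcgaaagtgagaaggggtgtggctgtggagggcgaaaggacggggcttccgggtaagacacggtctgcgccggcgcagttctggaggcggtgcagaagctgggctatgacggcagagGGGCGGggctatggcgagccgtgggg
Nmnat3: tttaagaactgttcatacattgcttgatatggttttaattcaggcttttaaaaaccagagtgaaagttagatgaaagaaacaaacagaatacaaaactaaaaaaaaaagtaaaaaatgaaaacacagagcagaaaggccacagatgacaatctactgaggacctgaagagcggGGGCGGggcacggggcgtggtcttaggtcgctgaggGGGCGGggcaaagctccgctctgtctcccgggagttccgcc
The Nampt window held 5 GC boxes and 75.6% G and C, against 2 GC boxes each in Nadsyn1 (66.0% G and C) and Nmnat3 (45.6%). A GC box was present in 32.7% of all 32851 windows of this length. None of the 3 windows held CACGTG (the E-box, in 6.02% of windows), the core of the interferon-stimulated response element (GAAA, any 2 bases, GAAA, in 2.98%) or TATAAA (the TATA box, in 12.4%), searched on both strands. These matches describe letters only.

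Sirt1, the targeted gene, did not separate the groups at gene level. Normalized counts averaged 1873 ± 146 in TMX and 1810.5 ± 62.5 in VEH spleens (mean ± SD over 5; exact two-sided permutation p = 0.413). A loss confined to a small part of the gene could be missed in this value, and levels within the gene were not examined. As background, limma called 36.1% of 15276 genes at an adjusted p (Benjamini-Hochberg) under 0.05, 16.8% as higher and 19.4% as lower in TMX, and for 24% the values of TMX and VEH did not overlap. The deposited values are already scaled, and the raw depth is unknown.

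The T-ALL spleens expressed the amide route above the acid and riboside routes at their first steps. Levels of different genes are compared only per kilobase of transcript, as its share of that quantity summed over all genes (in ppm). On this scale Nampt measured 22.3 ± 1.34 in VEH and 24.6 ± 2.73 in TMX spleens (SD, n = 5 each). Nmrk1 stood at 5.003 ± 0.216 and 4.76 ± 0.477, and Naprt at 2.74 ± 0.247 and 4.99 ± 0.953. In every sample Nampt was the highest of these 3 genes.

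The ratio of Nampt to Naprt per kilobase was 8.85, 7.74, 8.45, 7.49 and 8.42 in VEH samples 2 to 6. In TMX samples 7, 8, 10, 11 and 12 it was 4.07, 5.79, 5.84, 6.03 and 3.72. The amide route's first gene thus stayed above that of the acid route, by a smaller ratio in each TMX sample than in any control. Both genes have a single coding transcript in the annotation, so the choice of transcript length does not enter this ratio.

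Of the later steps, Nadsyn1 measured 15.6 ± 1.16 ppm in controls and 13.3 ± 0.348 in the other group, and the 2 adenylyltransferase genes lay close together, Nmnat1 at 10.8 ± 0.552 and 12.9 ± 1.22 and Nmnat3 at 12.3 ± 0.802 and 11.2 ± 0.982 (controls first, SD, n = 5 each). Nadk was the highest of the 9 genes, at 88.6 ± 2.61 and 80.5 ± 8.75, above 86.6% of tested genes. Cd38 (1.06 ± 0.153 and 1.85 ± 0.423) and Bst1 (0.880 ± 0.0941 and 1.41 ± 0.321) were the lowest, above 24.4% and 21.7% of tested genes. With the shortest coding transcript of each gene in place of the median, Nadsyn1 (34), Nmnat3 (25.8) and Nmnat1 (19.3) stood above Nampt (11.9) in controls, so the order of Nampt against these 3 genes depends on the transcript length used. The order of the other genes in controls held with the median, the shortest and the longest transcript.

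The tryptophan route was weakly represented at its entry. Tdo2, Ido1 and Ido2 encode the dioxygenases that open it. Per kilobase, Tdo2 measured 0.136 ± 0.0497 ppm in VEH spleens and 0.484 ± 0.459 in TMX. Ido1 measured 0.171 ± 0.0446 in VEH and 0.0844 ± 0.0991 in TMX, while Ido1 and Ido2 were under the minimum for testing. Qprt, the gene for the enzyme that joins this route to the acid route, stood at 1.58 ± 0.381 in VEH and 2.59 ± 0.448 in TMX. Nmnat2, the third adenylyltransferase gene, was also under the minimum, with normalized counts of 0.920 to 10.97 across samples.

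**Figure D1:**
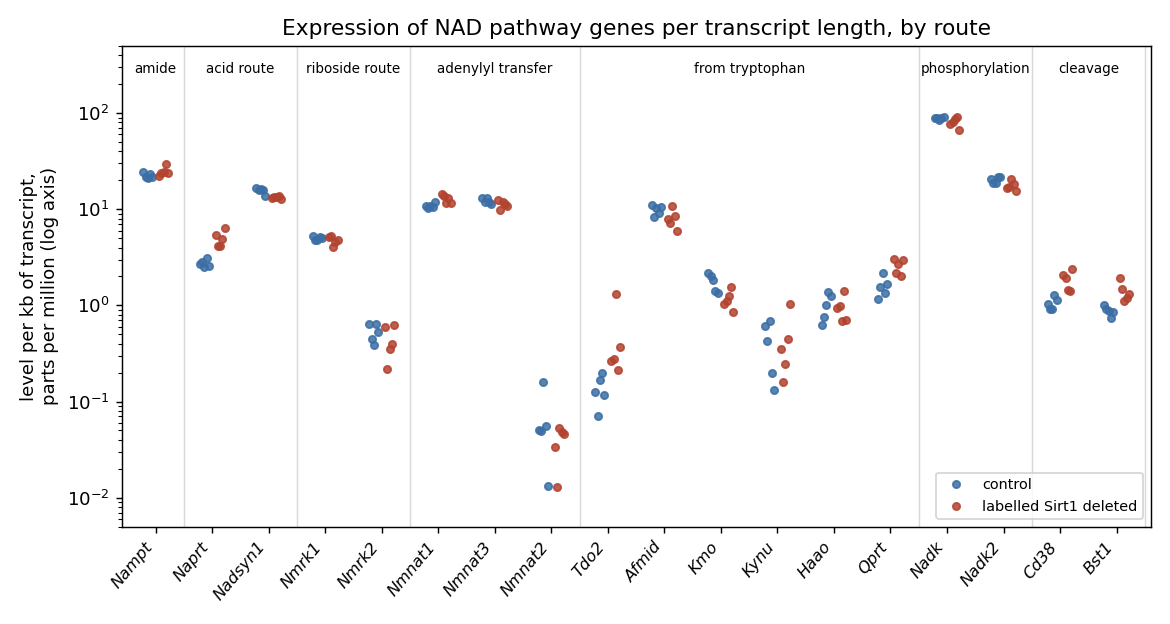
Level per kilobase of transcript (ppm, log axis) of NAD pathway genes, grouped by route, with 1 point per sample, VEH (control) in blue and TMX (labelled Sirt1 deleted) in red. Nampt lies above Naprt and Nmrk1 in all 10 samples, and Nmnat2 is near the bottom of the axis. Ido1, Ido2 and Acmsd are not drawn.

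Among the 9 genes, 5 were higher in the TMX samples and 0 were lower at an adjusted p under 0.05, beside 16.8% and 19.4% of all tested genes. The 5 were Naprt, Cd38, Bst1, Nmnat1 and Nampt. Groups did not overlap for 4 of them (all but Nampt), beside 24% of all tested genes. The median log2 difference of the 9 genes was 0.19, against -0.00014 over all tested genes. Log2 differences here and below are of log2(normalized count + 1), TMX minus VEH.

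Naprt, the first enzyme gene of the acid route, had the largest difference of the set. Its normalized counts in TMX samples 7, 8, 10, 11 and 12 were 273, 206, 206, 244 and 325, and in VEH samples 2 to 6 they were 129, 134, 121, 151 and 126. The lowest TMX sample was well above the highest control. The mean went from 132 ± 11.6 in VEH to 251 ± 49.9 in TMX, a log2 difference of 0.90 (SE 0.14, n = 5 each; limma adjusted p = 8.23e-04). Naprt ranked 1043 of 15276 genes by size of difference. The gene lies at chr15:75890956-75894481, and 277 bases of it overlap Eef1d on the same strand, where even stranded reads fit both genes. Eef1d, a translation elongation factor gene, rose as well, from 9174 ± 430.0 to 11065 ± 532 (log2 difference 0.27, limma adjusted p = 0.00180), and its part in the Naprt value was not tested.

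Nampt, the rate-limiting gene of the amide route (chr12:32819545-32853349), moved little. Its normalized counts were 2648, 2845, 2875, 3510.0 and 2880.1 in the TMX samples, in the order above, and 2713, 2472, 2438, 2702 and 2539.8 in controls. Sample 11 stood apart at the top, and sample 7 lay among the controls. The log2 difference was 0.19 (SE 0.07, 95% interval 0.04 to 0.35, limma adjusted p = 0.0485). This call was lost in 9 of 10 fits that each left out 1 sample. Without sample 11 the difference was 0.129 (limma adjusted p = 0.0808).

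Nmnat1 and Nmnat3 encode the nuclear and the mitochondrial adenylyltransferase. Nmnat1 (chr4:149467572-149485202) had 501, 474, 401, 450.3 and 405 normalized counts in the TMX samples and 349, 342, 359.8, 351 and 399 in controls. The groups only just failed to overlap, at 401 against 399. Nmnat1 rose by a log2 difference of 0.30 (SE 0.09, limma adjusted p = 0.0160). It overlaps Tmem274 on the opposite strand by 6172 bases, and Tmem274 had 2.41 to 8.90 normalized counts in TMX and 0.878 to 7.89 in VEH. Nmnat3 (chr9:98287435-98420438) showed no such shift, with 455, 356, 422, 415 and 394 against 451, 410.4, 459, 418 and 405. Its log2 difference was -0.07 (95% interval -0.25 to 0.11, limma adjusted p = 0.522). Whether the differences of the 2 genes differ from each other was not tested.

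Nadsyn1, which closes the acid and tryptophan routes (chr7:143795584-143822849), lay in the opposite direction from Naprt. It had 520.0, 528, 532, 546 and 517 normalized counts in the TMX samples and 628, 596, 628, 605 and 536 in controls. Control sample 6 was the only control inside the range of the other group. The log2 difference of -0.18 (95% interval -0.32 to -0.03) missed the threshold (limma adjusted p = 0.0523). It passed in 1 of 10 fits that left out 1 sample, without VEH sample 6 (-0.216, limma adjusted p = 0.0254). Of 11 other settings it passed in 2, a minimum mean of 50 (limma adjusted p = 0.0419) and no intensity trend (limma adjusted p = 0.034). Upper-quartile rescaling gave -0.117 (limma adjusted p = 0.173).

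Nmrk1, the riboside kinase gene (chr19:18631950-18652428), had 241, 247, 189, 214 and 224 normalized counts against 230.1, 213, 218, 235 and 230.0 in controls. Sample 10 was the lowest of all 10 samples. Its log2 difference was -0.02 (95% interval -0.23 to 0.19, limma adjusted p = 0.894). Nadk, the cytosolic NAD kinase gene (chr4:155562378-155591001), had 3241, 3381, 3527, 3759.6 and 2827 against 3487, 3518, 3413, 3592 and 3731. Sample 12 was the lowest and sample 11 the highest of all samples. Its log2 difference was -0.09 (95% interval -0.24 to 0.06, limma adjusted p = 0.320).

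Cd38 and Bst1 encode the NAD-cleaving surface enzymes and lie next to each other on chromosome 5, Bst1 at chr5:43818885-43843986 and Cd38 at chr5:43868553-43912375, with 24.6 kb between them. Cd38 had 179, 168, 123, 122 and 209 normalized counts in TMX samples 7, 8, 10, 11 and 12, and 83.6, 76.0, 77.5, 107 and 97.2 in VEH samples 2 to 6. All 5 were above the highest control, with samples 10 and 11 nearest to it. The mean of Cd38 went from 88.2 ± 13.3 in VEH to 160.2 ± 37.6 in TMX, a log2 difference of 0.83 (SE 0.17, n = 5 each; limma adjusted p = 0.00371).

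Bst1 had 147, 111, 83.9, 89.9 and 100.5 normalized counts in the TMX samples and 70.8, 66.6, 64.4, 54.2 and 63.7 in controls. Samples 10 and 11 were again the closest to the controls. The mean of Bst1 went from 63.9 ± 6.12 in VEH to 106 ± 24.8 in TMX, a log2 difference of 0.70 (SE 0.17, n = 5 each; limma adjusted p = 0.00704). It overlaps Fbxl5 on the opposite strand by 2754 bases. Libraries were strand-specific per the labels, but whether the counting used strand is not given in the sources used here. Fbxl5 measured 2117 ± 81.7 in TMX and 2138 ± 112 in VEH. The ratio of Cd38 to Bst1 per kilobase was 1.06 to 1.82 in TMX and 0.997 to 1.72 in VEH, so the ranges overlapped.

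**Figure D2:**
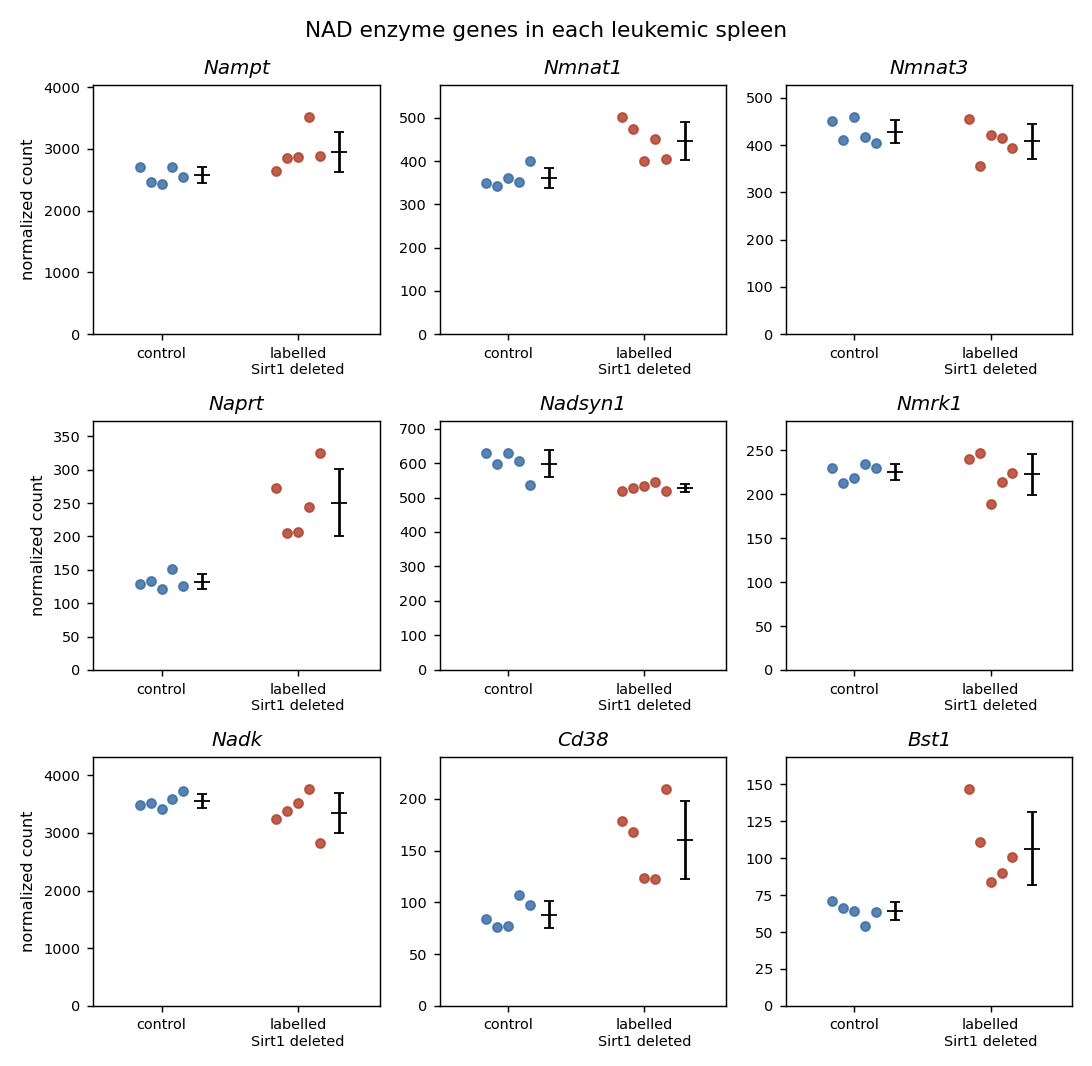
Normalized counts of the 9 genes in each sample, with VEH samples 2 to 6 and TMX samples 7, 8, 10, 11 and 12 from left to right in each panel, and the mean ± SD (n = 5) beside the points. The groups are apart for Naprt, Cd38, Bst1 and, narrowly, Nmnat1, and overlap for the other 5 genes.

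Markers of cells other than T-ALL cells moved in the same comparison. In bulk RNA, more cells of a type and more RNA per cell cannot be told apart. All 16 neutrophil markers were measured, 15 were higher at the threshold, and their summed level was 29962.5 to 103130.0 in the TMX samples against 9731 to 13358 in controls. For macrophage and monocyte markers, 13 of 16 were higher and the sums were 7111 to 13061 against 3434 to 3918. None of these markers was at 0 in any sample. Interferon response genes were higher in 23 of 25 cases, with sums of 30270.3 to 49763 against 16380 to 20318. The share of these movements in the differences of Cd38, Bst1, Naprt and Nampt was not tested.

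The order of the TMX samples was shared to different degrees. From highest to lowest, the neutrophil sum ran 8, 7, 12, 11, 10 and Bst1 ran 7, 8, 12, 11, 10. The macrophage sum ran 8, 7, 11, 12, 10. Cd38 ran 12, 7, 8, 10, 11 and Naprt ran 12, 7, 11, 10, 8. Whether these orders are related was not tested. Sample 8 had the highest neutrophil sum (103130.0) and macrophage sum (13061). Within TMX, sample 10 had the lowest neutrophil sum (29962.5) and the lowest interferon sum (30270.3), and also the lowest Bst1 value. Sample 11 had the highest Nampt value and the highest interferon sum (49763).

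Both genes of the CD38 family are also expressed by lymphoid cells. B cell and plasma cell markers gave 2 higher and 1 lower of 13 (23.1% called, beside 36.1% of all genes). Their sums overlapped (4931 to 6741 against 4728 to 5940.2). Sdc1 made up most of these sums, with a mean of 2987 of 5777 in TMX and 3533 of 5282 in VEH. The sums therefore say little about the other genes of the list. The 2 higher ones were Jchain and Mzb1, which are plasma cell genes, Jchain by 0.98 on the log2 scale (limma adjusted p = 0.00861) and Mzb1 by 1.16 (adjusted p = 0.00812, limma). Sdc1, the gene for the plasma cell surface protein CD138, was lower, at -0.25 (limma adjusted p = 0.0118). Its normalized counts in VEH, 3459 to 3604, were above those of Jchain (549 to 1467) and Mzb1 (39.5 to 121). Which cells carried the Sdc1 RNA was not tested, so its fall is not read as a fall of plasma cells. T lineage markers gave 2 higher and 4 lower of 16 (37.5% called, near the 36.1% of all genes). Their sums overlapped, at 188126 to 204263 and 203350.0 to 217479. Tcf7 was the largest part of these sums and was among the 4 lower genes, with means of 58426 in TMX and 77942 in VEH. The sums are therefore not read as a fall of the T lineage. Without TMX sample 10, the B and plasma cell count was 4 higher and 1 lower. For NK cells 0 of 4 tested markers were called. Among stromal and endothelial markers 1 of 7 was higher and 2 lower, the higher one being Thy1, which T cells also express, and 0 of 11 erythroid markers were called.

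**Figure D3:**
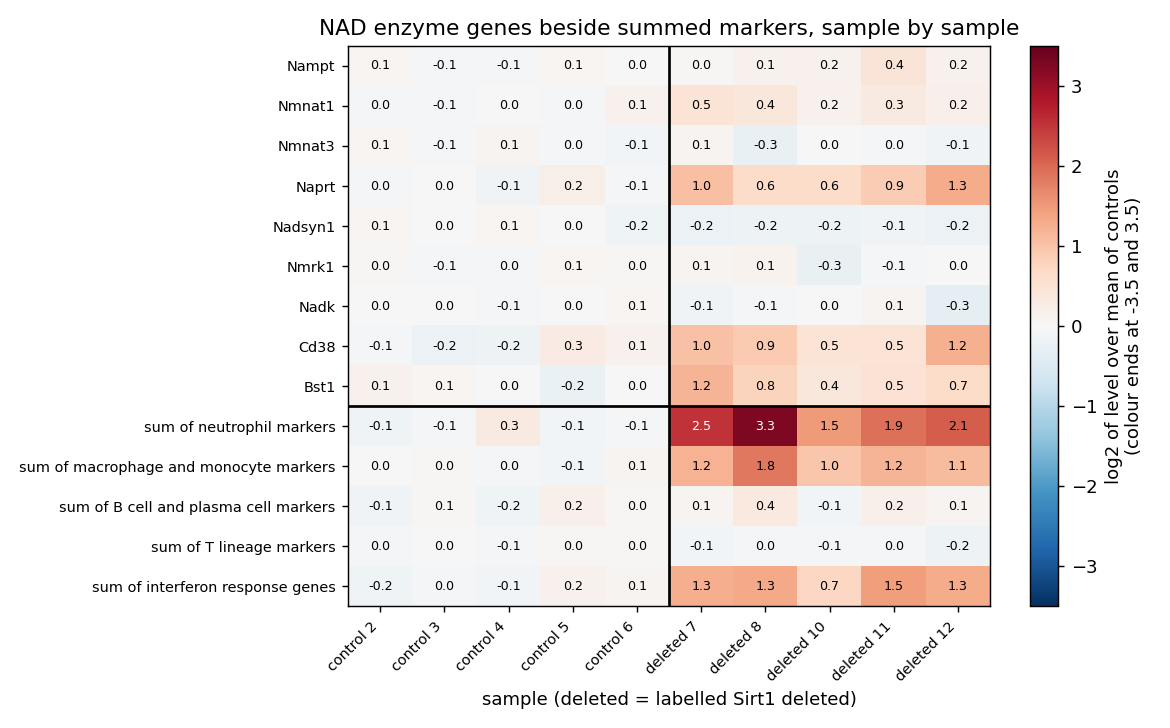
Log2 of each sample's level over the mean of the 5 controls, for the 9 genes (upper block) and for summed marker and interferon lists (lower block); columns are samples. Cd38, Bst1, Naprt, Nmnat1 and Nampt are above the control mean in all 5 TMX samples, Nampt only narrowly in sample 7. The neutrophil, macrophage and interferon sums are also above it in all 5. Among TMX samples, neutrophil sums are highest in sample 8 and lowest in sample 10.

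The genes closest in pattern were sought among all tested genes, by the root mean square difference of z-scored log2 values over the 10 samples (0 is identical, and the median gene lay at 1.42 from each of Naprt and Bst1 and at 1.43 from Cd38). The z-scores spanned both groups, so a difference between TMX and VEH that 2 genes share brings them close, whatever its size. Closeness here therefore does not show that genes vary together within a group or come from the same cells. For Naprt the closest genes were Bclaf1 (0.135, with a log2 difference of only 0.17), Pim3 (0.171) and Pidd1 (0.176). Among those closest to Cd38 were Gm49274 (0.226) and Rnf150 (0.234). For Bst1 they were Selenon (0.225), Prr15 (0.271) and Mmp8 (0.299), the last a neutrophil collagenase gene. For Nampt they were Ddias (0.355), D10Jhu81e (0.372) and Mrps7 (0.404), all farther away than the genes named for the other 3.

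Of the rest of the pathway, 31 genes in 4 lists, 27 were tested. There were 4 higher and 6 lower, and 37.0% called is near the 36.1% of all genes. Upper-quartile rescaling gave 5 higher and 4 lower, and without TMX sample 7 or without TMX sample 12 only 6 were called. In the tryptophan route, 2 rose and 1 fell of 7 tested (42.9% called). Qprt rose from 82.6 ± 20.8 to 140.3 ± 24.9 normalized counts (log2 difference 0.77, limma adjusted p = 0.00771). Kmo, the kynurenine hydroxylase gene, fell from 143 ± 27.5 to 97.6 ± 22.1 (log2 difference -0.55, limma adjusted p = 0.0314). Tdo2 rose by 1.49 (limma adjusted p = 0.0227) on low counts, 14.1 to 85.6 against 4.48 to 12.9. Its highest value was in sample 10, without which the difference was 1.06 (limma adjusted p = 0.026).

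The carrier and redox genes that passed the threshold were lower. Slc29a1, which encodes the nucleoside carrier ENT1, fell from 12669 ± 325 to 10218 ± 217 normalized counts (log2 difference -0.31, limma adjusted p = 2.96e-04) without overlap. Slc29a3, for the lysosomal carrier ENT3, fell from 749 ± 143 to 528 ± 33.6 (log2 difference -0.49, limma adjusted p = 0.00607). These were the 2 called of 7 transport genes tested, and all 7 had negative differences on the deposited scale (median -0.31). Nnt, the mitochondrial transhydrogenase gene that makes NADPH from NADH, fell from 1454 ± 76.3 to 1198 ± 119 (log2 difference -0.28, limma adjusted p = 0.00920), and Naxd, a repair enzyme gene for damaged NADH, differed by -0.16 (limma adjusted p = 0.0461). The other 4 of 6 tested genes in that list were not called. The shares called were 28.6% of the transport genes and 33.3% of that list, both under the 36.1% of all genes.

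Among other breakdown genes, 2 rose and 1 fell of 7 (42.9% called, beside 36.1% of all genes). Enpp3, an ectonucleotide pyrophosphatase gene (log2 difference 1.65, limma adjusted p = 0.0136) and Nt5e, the gene for the ectonucleotidase CD73 (1.38, limma adjusted p = 0.0450), rose on low counts, with means of 28.7 and 18.3 in the TMX samples. Without TMX samples 10 and 11, Enpp3 was at 1.04 and no longer called (limma adjusted p = 0.056). Enpp1 fell by 0.32 on the log2 scale (limma adjusted p = 0.0290). When each of the 10 samples was omitted in turn, the call of Kmo was lost 6 times, that of Enpp1 6 times, that of Naxd 7 times and that of Nt5e 7 times. Aox1, which oxidises nicotinamide derivatives, measured 395 in sample 10 and 6.24 to 15.2 in the other 9 samples.

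Genes for NAD-consuming sirtuins and PARPs changed in both directions: 6 rose and 5 fell of 22, 50% called beside 36.1% of all genes. The largest rises were in Parp12 (log2 difference 0.81, limma adjusted p = 9.24e-04), Parp14 (0.81, limma adjusted p = 8.04e-04) and Parp10 (0.76, limma adjusted p = 3.56e-04), which encode mono-ADP-ribosyltransferases. The largest falls were in Parp1, the DNA damage sensor (-0.41, limma adjusted p = 0.00485), Parp16 (-0.39, limma adjusted p = 0.00229) and Tnks2, a tankyrase (-0.34, limma adjusted p = 0.00115).

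**Figure D4:**
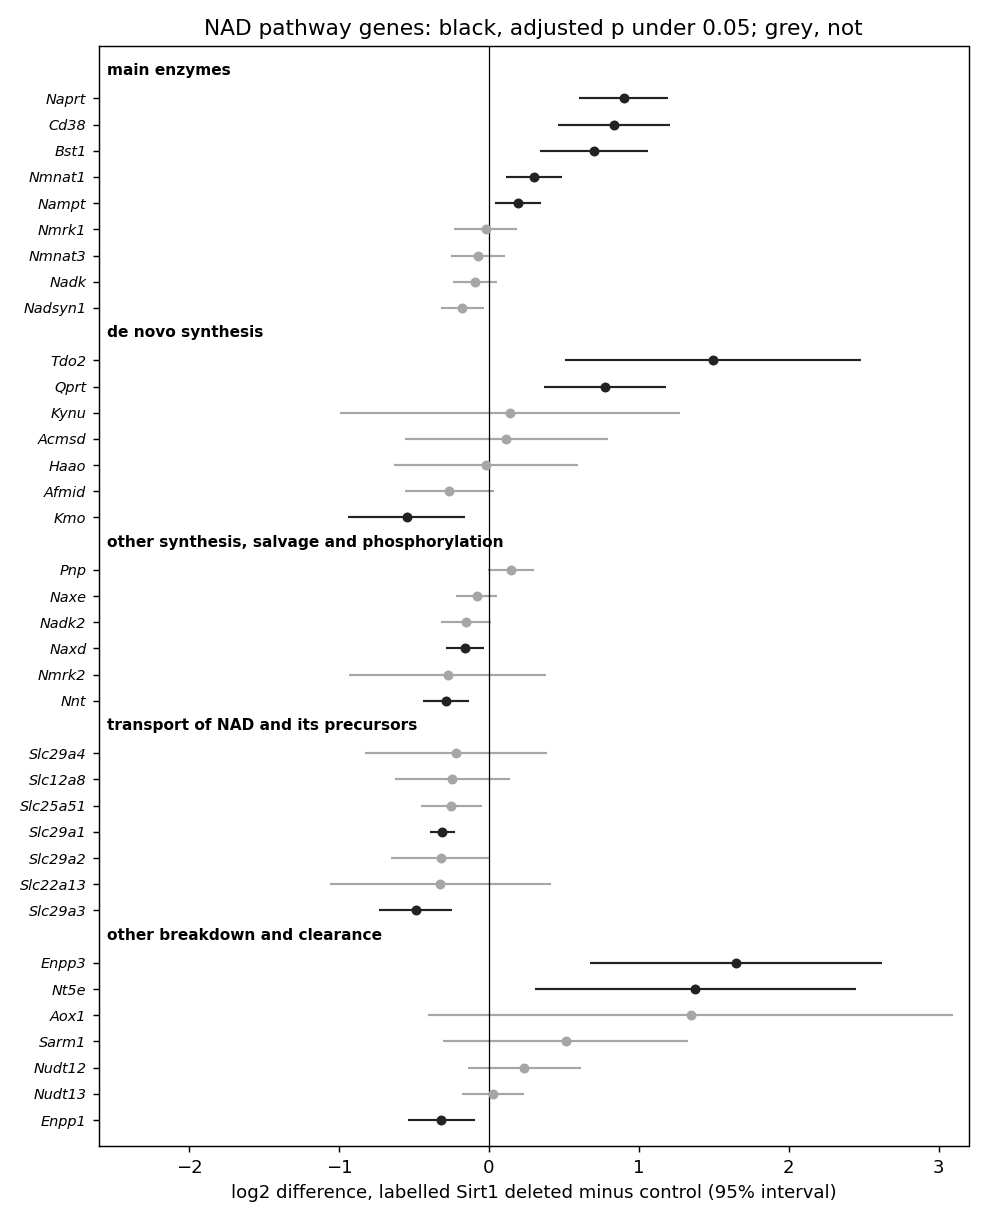
Log2 difference (TMX, labelled Sirt1 deleted, minus VEH control) with its 95% interval for the 9 genes and the 27 other tested pathway genes, by list; black points passed an adjusted p of 0.05 in limma and grey points did not. All 7 transport genes lie to the left of 0, and Aox1, high in a single sample, has the widest interval.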

How the data were processed

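Bulk RNA-seq of 10 leukemic spleens was used, 5 labelled Sirt1 deleted and 5 control. The deposited signal values are named by the authors as DESeq-normalized counts per gene, and they are not raw counts. The submitters' processing notes name kallisto 0.44.0, DESeq and build mm10, with no role or order. Annotation, gene filter and raw depth are not given in the sources used here, so no counting intervals were derived. There were 0 columns outside the 10 samples.

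Values were transformed as log2(value + 1). The 15276 genes with a mean of at least 10 went into limma (version 3.58.1, R 4.3.3), with group as the only term and an intensity trend. P-values were adjusted by Benjamini-Hochberg over all tested genes, at 0.05. The fit was tested on simulated counts of 14826 genes, changing only genes with a control mean of at least 50: all 100 with 2-fold changes were called, as were 98 of the 100 with 1.5-fold changes, and 8 of 206 calls were false. The simulation used a single dispersion (spread beyond counting noise), fixed for all genes and not estimated from the data. In TMX, Naprt, Cd38 and Bst1 varied more than that. Far fewer genes were changed than the 36.1% called in the data. These rates therefore check the code and do not describe the fit on the spleens.

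Alternatives were other pseudocounts, minimum levels and scalings, limma without the trend or with sample weights, leaving out each sample, and other transcript lengths.

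Levels per kilobase used the median length of a gene's protein-coding transcripts in GENCODE M21 (GRCm38), found for 20793 of 20813 symbols. Promoter windows came from RefSeq (GRCm38.p6).

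The genes and lists were chosen with earlier results of these data known. Genes named were the 9 measured, called genes of the other pathway lists (at most 3 rises and 3 falls a list), and the 3 nearest in pattern to Nampt, Naprt, Cd38 and Bst1, 1 of which is not reported here. Marker genes, Eef1d, Fbxl5, Tmem274, Aox1 and the weakly expressed genes were named after their values were seen. Parp7 is another symbol of Tiparp and was counted once.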

Additional observations from a re-analysis of the deposited data

Results flagged for a closer look

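For 44 sets of 5 samples (the 9 genes, Sirt1, the called pathway genes, Aox1 and the ratio of Nampt to Naprt, in each group), the most extreme sample's gap to the next value was taken as a share of the whole spread in its group (Dixon's ratio). It passed the critical value of 0.71 in 3 sets, where chance at 1 in 20 gives 2.2.

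Nampt was highest in TMX sample 11, at 3510 normalized counts against 2648 to 2880.1 in the rest of its group (ratio 0.731). Tdo2 was highest in sample 10, at 85.6 against 14.1 to 25.0 (ratio 0.848). Aox1 was highest in the same sample, at 395 against 10.04 to 15.2 (ratio 0.986), and its log2 difference between the groups was 1.35 with sample 10 and 0.378 without it (limma adjusted p = 0.210 and 0.342).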

How the results depend on the processing

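No paired analysis was possible because TMX and VEH titles share no replicate numbers. Naprt, Cd38, Bst1 and Nmnat1 stayed higher and past the threshold in all 10 fits that left out 1 sample and under the 11 other settings, of which 2, leaving out samples 10 and 11 together and scaling by totals less the top 10 genes, were chosen after seeing the data. Nampt stayed higher (0.118 to 0.256 over those 11 settings) with adjusted p from 0.0111 to 0.111. Nmrk1 changed sign, uncalled, with upper-quartile rescaling (0.0387), sample weights (0.0344), without samples 10 and 11 (0.0746) and without sample 10 (range over single omissions -0.0585 to 0.0378). Nadk passed, as lower, without samples 10 and 11 (-0.175, adjusted p = 0.0376). The number of the 9 genes called was 4 to 6. Other pathway genes called numbered 6 to 13 when 1 sample was left out, lowest without TMX sample 7 or 12, and 8 to 13 otherwise. The calls of Kmo, Naxd, Nt5e and Enpp1 were each lost without some single samples, and that of Tdo2 without VEH sample 3. Under the other settings, Naxd was lost in 5 of 11 (adjusted p up to 0.155), Nt5e in 7 of 10 (up to 0.103), Enpp1 in 1 of 11 (0.0616), Tdo2 in 1 of 10 (0.0676) and Enpp3 in 1 of 10 (0.056). Upper-quartile rescaling moved the median difference of all genes to 0.0588 and the split of changed genes to 3162 higher and 2270 lower, from 2562 and 2956. The cause of these shifts was not tested.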
